A study of Mus musculus with 18 samples.

Results

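C2C12 cells, an established line of mouse myoblasts, were kept for 30 min at 37 °C in 200 µL of 0.25% trypsin, and their mRNA levels were compared with those of cells that were lysed in the plate and scraped off. The members were chosen by their labels: 3 libraries of the 30 min trypsin group and 3 of the scraped control group, 6 of the 18 libraries of the series. All cells were grown in medium with 20% fetal bovine serum, and the treated wells were washed with PBS before the enzyme was added. Libraries from 30 s and 3 min in the same trypsin, 3 each, served as shorter exposures. RNA came from whole lysates and was counted by BRB-seq, a pooled method in which cDNA is barcoded by sample and reads fall near the poly(A) end of an mRNA. The labels call the 3 libraries of a group lots, named replicates here, and do not say whether lots were separate cultures. The p-values therefore cover only the spread among samples of the same group, and that spread may be technical. It was estimated jointly over all 18 libraries. The cells are 1 established line. Total counts were 1608020 to 1884759 in the 30 min libraries and 1582906 to 2172214 in the control libraries. The groups also differed in the PBS wash, the incubation and the harvest, which cannot be told apart from the enzyme in this comparison.

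Trypsin cuts proteins after lysine and arginine and is used to free adherent cells from the dish, which removes much of the protein at their surface and their hold on the matrix. Transcripts of short-lived regulators can change within minutes of a signal. Examples are targets of the Notch receptor, which is itself activated by cleavage, of NF-kB, which switches on chemokine genes, of the MAP kinases, and of ATF4, the transcription factor of the integrated stress response. Stable mRNAs, such as those of ribosomes and of the respiratory chain, turn over slowly by comparison.

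In 30 min cells a small set of regulatory mRNAs stood well above control. It included Hes1, the transcriptional repressor downstream of Notch, Cxcl1, a neutrophil chemokine, Dusp1, a phosphatase of MAP kinases, Depp1, a stress-inducible protein regulated by FoxO factors, and Chac1, a glutathione-degrading enzyme induced through ATF4. Of 10075 genes tested, 209 were higher (2.07%) and 263 lower (2.61%) after 30 min at a Benjamini-Hochberg adjusted p under 0.05 in edgeR's quasi-likelihood F test, the call used throughout. At an unadjusted p under 0.05 there were 1648 genes. Most calls were small: the median log2 change of the called genes was 0.52 upward and -0.48 downward, and 29 genes rose and 42 fell by more than 2-fold. The median over all tested genes was 0.00493. Every 30 min library lay above every control library for 200 of the 209 higher genes, and below for 255 of the 263 lower ones. This separation was counted in the same libraries that gave the calls, so it adds no separate support. Its share over all tested genes is not given here. In all 6 fits that left out 1 library, 77 of the higher and 122 of the lower genes kept their call. DESeq2 also called 129 of the higher and 196 of the lower genes. Each fit that left out 1 library filtered the genes anew and tested 10216 to 10223 of them. Members of the lists below can therefore differ from the main fit, as well as the libraries. Changes are given below as log2 fold changes of 30 min over control with their standard error (SE), beside CPM values (counts relative to the TMM-scaled library total), in the order of replicates 1, 2 and 3.

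**Figure D1:**
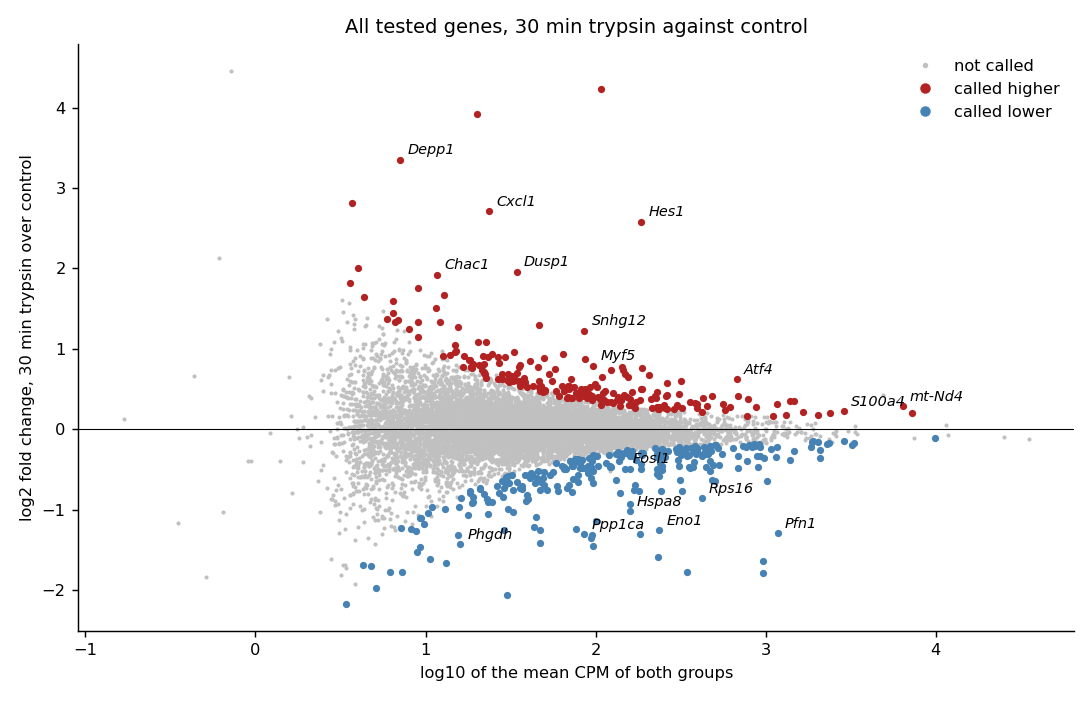
The plot sets the log2 fold change of 30 min trypsin over control (vertical) against the log10 of the mean CPM of both groups (horizontal) for the tested genes, with 209 called higher in red, 263 called lower in blue and the rest in grey; genes without a count in both groups are not drawn. Hes1, Cxcl1, Dusp1, Depp1 and Chac1 stand above 1.9, while abundant genes such as mt-Nd4 and S100a4 were called at changes of 0.28 and 0.22.

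Notch signalling was represented by 18 tested genes, of which 2 rose, none fell and the median log2 change was 0.10 (4 rises without 30 min replicate 3). Hes1 (ENSMUSG00000022528, chr16:30064384-30067796, GRCm38) had 331, 334 and 289.6 CPM in 30 min cells, against 43.4, 60.7 and 53.4 CPM in control cells, 2.58 ± 0.10 on the log2 scale (SE, n = 3 a group; edgeR adjusted p = 1.82e-26). No library of either group came near the other group. After 30 s Hes1 had 78.2, 87.6 and 86.8 CPM and after 3 min 75.0, 83.7 and 92.0 CPM, so the 30 min libraries were also higher than both shorter exposures, by 1.92 and 1.93 on the log2 scale (edgeR adjusted p = 2.92e-22 and 5.49e-22). Notch2, a receptor of the pathway, had 246, 281 and 234 CPM in 30 min cells and 220.1, 179 and 179.5 CPM in control cells. Notch2 changed by 0.41 ± 0.08 on the log2 scale (edgeR adjusted p = 0.000566), with no overlap. Hey1, another Notch target, was too low for the test, with 31 counts summed over the 30 min libraries and 4 over the control libraries. It is named after its counts were seen.

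**Figure D2:**
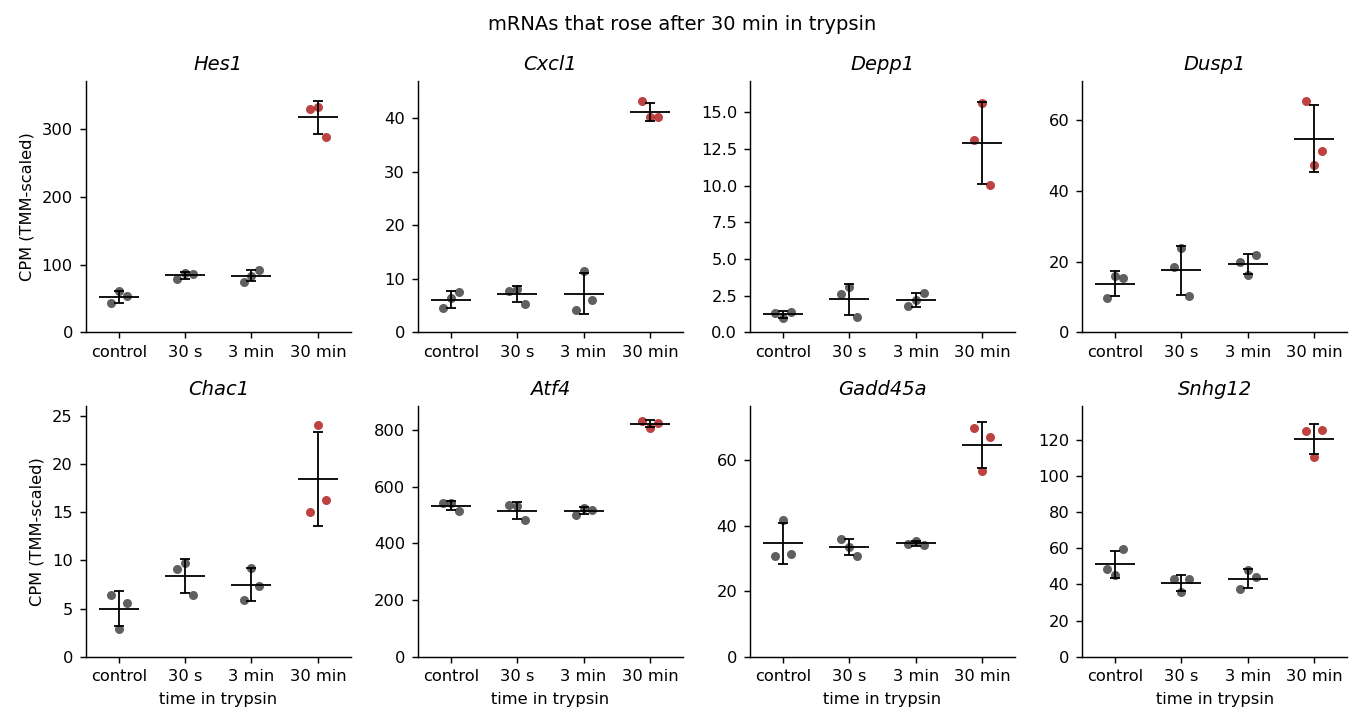
Each panel shows CPM (TMM-scaled, linear axis from 0) of 1 mRNA in the control, 30 s, 3 min and 30 min groups, with a point per library and a bar for the mean ± SD of 3 libraries; the 30 min libraries are red. In all 8 panels the 3 libraries of 30 min lie above every other library, and for Atf4, Gadd45a and Snhg12 the control, 30 s and 3 min libraries lie close together.

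Among 25 tested genes of the chemokine and NF-kB list 5 rose and none fell, with a median log2 change of 0.16. The fits that left out 1 library gave medians of 0.0054 (without 30 min replicate 3) to 0.089, with 2 or 3 rises each. Without 30 min replicate 3 or control replicate 2, 1 member was called lower. These fits filtered the genes anew, so a shift in the median may come from other members as well as from a library. Cxcl1 (ENSMUSG00000029380, chr5:90891241-90893115) had 43.1, 40.1 and 40.1 CPM in 30 min cells and 4.47, 6.31 and 7.5 CPM in control cells. Cxcl1 changed by 2.71 ± 0.26 on the log2 scale (edgeR adjusted p = 1.99e-11). Its level was 7.78, 8.15 and 5.32 CPM after 30 s and 4.10, 11.4 and 6.00 CPM after 3 min, and 30 min was higher than 3 min by 2.48 on the log2 scale (edgeR adjusted p = 1.27e-10). Thus all 3 libraries of 30 min lay above all 9 of the other 3 groups. Cxcl5, which acts on the same receptor as Cxcl1, had 9.999, 11.5 and 20.1 CPM in 30 min cells and 5.74, 4.37 and 2.34 CPM in control cells. Cxcl5 changed by 1.76 ± 0.40 on the log2 scale (edgeR adjusted p = 0.00284; 0.0631 without 30 min replicate 3). The monocyte chemokines moved less. Ccl2 had 116, 108 and 98.4 CPM in 30 min cells and 79.1, 83.1 and 86.7 CPM in control cells, and Ccl7 was 0.45 above control on the log2 scale; Ccl2 missed the threshold in 4 and Ccl7 in 5 of the 6 fits that left out 1 library (highest edgeR adjusted p = 0.112 and 0.165, both without 30 min replicate 1). Sod2, the mitochondrial superoxide dismutase, rose by 0.26 but has 7 near-identical copies among the transcripts, and its call was also lost in 4 such fits (highest edgeR adjusted p = 0.188, without control replicate 3). Nfkbia, the inhibitor of NF-kB that NF-kB itself induces, was at 0.17 (edgeR adjusted p = 0.516) and did not pass, while Map3k14, a kinase of the noncanonical NF-kB pathway, rose by 0.91 (edgeR adjusted p = 0.00562); both are named after their values were seen. Il6, also seen afterwards and too low to be tested, had 11 counts over the 30 min libraries and 0 over the control libraries, where 3 counts correspond to 1.38 to 1.90 CPM per library. The promoter of Cxcl1 is printed because its mRNA had the largest rise of this list; capitals mark the stretch that matches the kappaB motif in 2 overlapping registers, 71 to 62 and 70 to 61 bases before the start (RefSeq, GRCm38.p6, chr5:90890995-90891244, plus strand).
Cxcl1: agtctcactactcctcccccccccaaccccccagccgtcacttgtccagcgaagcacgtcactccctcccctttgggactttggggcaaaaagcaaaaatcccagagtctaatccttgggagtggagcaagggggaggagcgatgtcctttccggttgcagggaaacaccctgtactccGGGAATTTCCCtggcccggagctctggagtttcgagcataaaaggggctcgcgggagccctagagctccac

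Dusp1 was the sole call among 18 tested feedback inhibitors of MAP kinase signalling (1 rose, none fell, median log2 change -0.01, and 0.035 without 30 min replicate 1). Dusp1 (ENSMUSG00000024190, chr17:26505590-26562128) had 65.6, 47.4 and 51.4 CPM in 30 min cells, against 9.57, 16.03 and 15.5 CPM in control cells. Dusp1 changed by 1.96 ± 0.22 on the log2 scale (edgeR adjusted p = 1.22e-09). The shorter exposures were at 18.6, 23.9 and 10.1 CPM (30 s) and 19.9, 16.3 and 21.99 CPM (3 min), and every 30 min library exceeded every one of these (30 min against 3 min: edgeR adjusted p = 3.78e-07). Its promoter is shown with the full cAMP response element (CRE, TGACGTCA) in capitals, 143 to 136 bases before the start (RefSeq, GRCm38.p6, chr17:26508473-26508722, minus strand).
Dusp1: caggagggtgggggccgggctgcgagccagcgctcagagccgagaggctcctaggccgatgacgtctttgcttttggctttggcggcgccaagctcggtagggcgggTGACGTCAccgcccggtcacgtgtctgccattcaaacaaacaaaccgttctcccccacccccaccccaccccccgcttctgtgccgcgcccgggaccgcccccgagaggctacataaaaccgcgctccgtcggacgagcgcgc

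Immediate early transcription factors did not move as a group: of 22 tested, 4 rose and 2 fell, with a median log2 change of 0.05. Klf6, a zinc finger factor, had 274, 263 and 263 CPM in 30 min cells and 183, 196 and 199.7 CPM in control cells. Klf6 changed by 0.46 ± 0.07 on the log2 scale (edgeR adjusted p = 3.31e-06). Egr1, the growth-factor-inducible zinc finger factor, had 127, 125 and 102 CPM in 30 min cells and 72.1, 92.8 and 75.0 CPM in control cells (0.56 ± 0.11; edgeR adjusted p = 0.00082). For both, the 30 min libraries lay above all control libraries. Atf3, a stress-induced repressor, was at 6.87, 6.25 and 6.90 CPM in 30 min cells and 1.276, 2.43 and 2.34 CPM in control cells, and its call (edgeR adjusted p = 0.0335) was lost with any 1 library left out, up to an adjusted p of 0.127 without control replicate 1. The remaining rise was Bhlhe40, by 0.47, lost in 5 of 6 such fits (highest edgeR adjusted p = 0.241, without control replicate 3).

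The falls of this list were Fosl1 and Ier2. Fosl1, an AP-1 subunit, had 116, 122 and 134 CPM in 30 min cells and 181, 153 and 191 CPM in control cells. Fosl1 changed by -0.49 ± 0.09 on the log2 scale (edgeR adjusted p = 7.38e-05); another annotated gene overlaps its transcript end. Ier2, a serum-induced nuclear protein, had 50.6, 59.4 and 56.4 CPM in 30 min cells and 75.3, 83.1 and 75.9 CPM in control cells. Ier2 changed by -0.49 ± 0.13 on the log2 scale (edgeR adjusted p = 0.0178; 0.104 without control replicate 2 and also above the threshold without 30 min replicate 1). Junb, another AP-1 subunit, had 235, 179.8 and 192 CPM in 30 min cells and 200.3, 195 and 197 CPM in control cells and did not pass (edgeR adjusted p = 0.905); it was lower than after 3 min, with a log2 change of -0.33 (edgeR adjusted p = 0.00991). Fos was too low for the test, with 17 counts over the 30 min libraries and 4 over control. Pim3, Ereg and Ccnd1, mRNAs of mitogen signalling, were also called lower and are named after their values were seen. Pim3, a growth-promoting kinase, had 58.1, 51.6 and 63.9 CPM in 30 min cells and 100.2, 86.0 and 81.6 CPM in control cells (-0.62 ± 0.12; edgeR adjusted p = 0.000365). Ereg, a ligand of the EGF receptor, changed by -0.85 (edgeR adjusted p = 0.0105; 0.0666 without control replicate 3 and also above the threshold without 30 min replicate 1), and the groups of Ccnd1, which encodes cyclin D1, overlapped (337, 276 and 335 CPM in 30 min cells, 317, 535 and 446 CPM in control cells; edgeR adjusted p = 0.000782, and 0.0879 without control replicate 2).

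The integrated stress response showed the most upward calls among the coding lists: of 27 tested genes 10 rose, 1 fell and 16 did not pass, with a median log2 change of 0.30. Of the 10, 7 kept their call in all 6 fits that left out 1 library, and 6 genes of the list were called when a fold of at least 1.2 was tested. Atf4 (ENSMUSG00000042406, chr15:80255184-80257541), its central transcription factor, had 831, 807 and 826 CPM in 30 min cells and 541, 542 and 516 CPM in control cells. Atf4 changed by 0.62 ± 0.05 on the log2 scale (edgeR adjusted p = 7.35e-13). It stayed at 534, 530.3 and 481 CPM after 30 s and 501, 524 and 518 CPM after 3 min, within the range of control or just under it. Chac1 (ENSMUSG00000027313, chr2:119351229-119354381) had 15.0, 24.0 and 16.3 CPM in 30 min cells and 6.38, 2.91 and 5.62 CPM in control cells. Chac1 changed by 1.92 ± 0.32 on the log2 scale (edgeR adjusted p = 3.26e-05). Ddit4, an inhibitor of mTORC1 signalling, had 127, 115 and 94.0 CPM in 30 min cells and 65.1, 58.3 and 61.4 CPM in control cells. Ddit4 changed by 0.87 ± 0.12 on the log2 scale (edgeR adjusted p = 5.34e-07). Slc38a2, a transporter of neutral amino acids, had 534, 585 and 539 CPM in 30 min cells and 392, 409.9 and 444 CPM in control cells. Slc38a2 changed by 0.41 ± 0.06 on the log2 scale (edgeR adjusted p = 1.74e-06). In these 4 genes the groups did not overlap, which the naming rule required of Chac1.

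The other 6 rises of that list are named after their values were seen. Nupr1, a stress-induced chromatin protein, had 83.7, 65.1 and 69.6 CPM in 30 min cells and 40.8, 39.3 and 48.7 CPM in control cells. Nupr1 changed by 0.75 ± 0.13 on the log2 scale (edgeR adjusted p = 9.31e-05), while after 30 s it was at 25.9, 23.9 and 25.6 CPM, under control. Ddit3, the factor also called CHOP, had 53.1, 30.2 and 48.3 CPM in 30 min cells and 24.2, 19.4 and 23.4 CPM in control cells (0.96 ± 0.20; edgeR adjusted p = 0.00108), but another annotated gene overlaps its transcript end, and strand use in counting is not given in the sources used here. Gdf15, a secreted stress hormone, rose by 0.78 (edgeR adjusted p = 0.000546). Trib3, a pseudokinase that binds AKT, Ppp1r15a, the phosphatase subunit that acts on eIF2alpha, and Atf3 rose by 1.44, 0.78 and 1.65, but each lost its call in 5 or 6 of the fits that left out 1 library (highest edgeR adjusted p = 0.217 for Trib3 without control replicate 2, 0.326 for Ppp1r15a without 30 min replicate 1 and 0.127 for Atf3). Eif4ebp1, a repressor of cap-dependent translation, was called lower at -0.26 on the log2 scale and lost its call in 4 of 6 such fits (highest edgeR adjusted p = 0.0931, without 30 min replicate 2). The promoters of Chac1, Atf3 and Nupr1 are printed because each holds the same composite C/EBP-ATF element (TGATGNAA, on either strand), in capitals. Of the 10 rising members of the list, these 3 hold it, and the windows of Atf4, Ddit3, Trib3, Ddit4, Slc38a2, Ppp1r15a and Gdf15 do not. It lies 193 to 186 bases before the start in Chac1 (chr2:119350992-119351241, plus strand). It lies 110 to 103 bases before the start in Atf3 (chr1:191183334-191183583, minus strand) and in Nupr1 (chr7:126625471-126625720, minus strand), all from RefSeq, GRCm38.p6.
Chac1: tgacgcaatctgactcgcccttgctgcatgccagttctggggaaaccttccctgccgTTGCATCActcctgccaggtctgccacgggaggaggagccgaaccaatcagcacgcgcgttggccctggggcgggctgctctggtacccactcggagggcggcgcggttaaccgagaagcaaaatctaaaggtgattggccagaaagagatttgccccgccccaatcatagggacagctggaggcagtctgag
Atf3: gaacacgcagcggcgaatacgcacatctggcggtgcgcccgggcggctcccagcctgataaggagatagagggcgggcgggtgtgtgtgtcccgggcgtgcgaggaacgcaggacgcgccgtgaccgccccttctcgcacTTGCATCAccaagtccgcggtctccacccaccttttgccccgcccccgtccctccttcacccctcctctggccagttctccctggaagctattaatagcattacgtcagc
Nupr1: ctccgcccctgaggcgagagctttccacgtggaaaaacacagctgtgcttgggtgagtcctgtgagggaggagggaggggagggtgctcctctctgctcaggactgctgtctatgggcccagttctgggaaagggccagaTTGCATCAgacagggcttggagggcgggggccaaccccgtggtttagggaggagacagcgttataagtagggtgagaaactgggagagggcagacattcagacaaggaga

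Further lists hold genes that are often raised together with ATF4 over longer times. Over all tested genes 2.07% were higher and 2.61% lower, so counts in lists of 14 to 23 genes say little about the lists. None of the 20 tested aminoacyl-tRNA synthetases passed (median log2 change -0.05). Among 14 tested genes of serine and one-carbon synthesis none rose and 1 fell, Phgdh, the first enzyme of serine synthesis, which had 8.12, 11.5 and 5.64 CPM in 30 min cells and 28.1, 21.4 and 21.1 CPM in control cells (-1.43 ± 0.27; edgeR adjusted p = 0.000177). Phgdh has 11 near-identical copies among annotated transcripts, so its reads may have been split. Of 23 chaperones of the endoplasmic reticulum 2 rose and 1 fell (median 0.04; 0.0032 without 30 min replicate 3). Calr and Pdia4 rose by 0.21 and 0.54 and lost their calls in 4 and 5 of the 6 fits that left out 1 library (highest edgeR adjusted p = 0.158 without control replicate 2 and 0.294 without 30 min replicate 3). Sec61b, a subunit of the translocon with 3 copies, fell by 0.50 on the log2 scale (edgeR adjusted p = 3.51e-05).

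Of 17 tested members of the list of mRNA decay and antiproliferative early genes 4 rose and 2 fell, with a median log2 change of 0.19. The median was -0.0075 without control replicate 1, and no member was called lower without 30 min replicate 2 or control replicate 3. Gadd45a, a stress sensor that activates p38 kinase, had 70.0, 56.8 and 67.1 CPM in 30 min cells and 30.6, 41.8 and 31.4 CPM in control cells. Gadd45a changed by 0.88 ± 0.15 on the log2 scale (edgeR adjusted p = 3.83e-05). Gadd45g, its relative, had 246, 234 and 239 CPM in 30 min cells and 173, 187 and 192 CPM in control cells (0.38 ± 0.07; edgeR adjusted p = 0.000497). The groups of both genes stood apart. Tob1, which recruits deadenylases to mRNAs, had 35.0, 51.1 and 48.3 CPM in 30 min cells and 21.7, 28.7 and 27.7 CPM in control cells (0.77 ± 0.17; edgeR adjusted p = 0.00138), and was 0.09 above 3 min, which did not pass (edgeR adjusted p = 0.885). Cdkn1a, the cell cycle inhibitor p21, was called at 0.27 (edgeR adjusted p = 0.0168), but not without 30 min replicate 2 (0.271) or without control replicates 1 or 2. It was the sole call among 21 tested p53 targets (median -0.02, but 0.165 without control replicate 2). Sertad2 and Sertad1, transcriptional coregulators that bind E2F or its partners, were called lower at -0.49 and -0.32 on the log2 scale, and both calls depended on single libraries (highest edgeR adjusted p = 0.0742 without 30 min replicate 2 and 0.14 without 30 min replicate 1).

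Depp1 (ENSMUSG00000048489, chr6:116650609-116652794) had the largest rise among genes named by the rule, which passes over pseudogenes and predicted genes. It had 13.1, 15.6 and 10.03 CPM in 30 min cells and 1.276, 0.971 and 1.41 CPM in control cells. Depp1 changed by 3.35 ± 0.47 on the log2 scale (edgeR adjusted p = 5.34e-07). The control values stand for 2, 2 and 3 counts and the 30 min values for 21, 30 and 16 counts, so the size of the fitted fold rests on few counts. After 3 min the level was 1.76, 2.17 and 2.67 CPM. Depp1 was not a member of the list of FoxO targets and alpha-arrestins. None of the 19 tested members of that list passed against control, although their median was 0.23. Txnip, an arrestin that limits glucose uptake, had 12.5, 4.69 and 8.15 CPM in 30 min cells and 1.91, 2.43 and 4.22 CPM in control cells (edgeR adjusted p = 0.0643), and was higher than after 3 min by 2.73 on the log2 scale (edgeR adjusted p = 0.00165). Txnip is named after its values were seen. The list of circadian and glucocorticoid-responsive genes gave 4 rises and no fall among 17 tested (median 0.24). None of the 4 was called in all 6 fits that left out 1 library. Bhlhe41, a transcriptional repressor of the clock, had 141, 116 and 102 CPM in 30 min cells and 72.1, 91.8 and 83.9 CPM in control cells (0.52 ± 0.11; edgeR adjusted p = 0.00145; 0.0561 without 30 min replicate 1). Nfil3 and Nr1d1, further repressors of the clock, rose by 0.69 and 0.61 and lost their calls in 6 and 5 of these fits (highest edgeR adjusted p = 0.155 without control replicate 2 and 0.192 without control replicate 3). Without 30 min replicates 1 or 2 or control replicates 1 or 3 the list had 1 call in place of 4.

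In the list of long noncoding RNAs 10 of 23 tested members rose and none fell, with a median log2 change of 0.51. Of these, 7 kept their call in all 6 fits that left out 1 library, and 5 were called when a fold of at least 1.2 was tested. Many of them host small nucleolar RNAs in their introns, and several are known to be degraded by nonsense-mediated decay when they are translated. Snhg12 (ENSMUSG00000086290, chr4:132308623-132311024) had 125, 110.5 and 125 CPM in 30 min cells and 48.5, 45.2 and 59.5 CPM in control cells. Snhg12 changed by 1.22 ± 0.12 on the log2 scale (edgeR adjusted p = 1.31e-10); another annotated gene overlaps its transcript end. Zfas1 had 188, 164 and 201 CPM in 30 min cells and 102, 124 and 113 CPM in control cells. Zfas1 changed by 0.69 ± 0.09 on the log2 scale (edgeR adjusted p = 3.08e-07). Snhg5 had 172, 147 and 142 CPM in 30 min cells and 71.5, 97.1 and 104 CPM in control cells. Snhg5 changed by 0.74 ± 0.12 on the log2 scale (edgeR adjusted p = 6.49e-06). In these 3 RNAs no 30 min library overlapped a control library, which the naming rule required of Snhg12. H19, an imprinted RNA and host of a microRNA that is abundant in myoblasts, had 814, 802 and 729 CPM in 30 min cells and 577, 621 and 556 CPM in control cells. H19 changed by 0.42 ± 0.06 on the log2 scale (edgeR adjusted p = 9.08e-07). Snhg20 rose by 1.08 (edgeR adjusted p = 0.000722). Named after their values were seen, Snhg1 and Gas5 rose by 0.66 and 0.43 (edgeR adjusted p = 3.26e-05 and 0.00221). Malat1, a nuclear RNA, also rose by 0.58 but not without 30 min replicate 2 (edgeR adjusted p = 0.0618); Neat1, the scaffold of paraspeckles, was at 0.21 and did not pass (edgeR adjusted p = 0.605). The same list had 10 higher and 1 lower against 3 min (median 0.44) and 9 higher and 1 lower against 30 s (median 0.37); these comparisons share the 30 min libraries.

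**Figure D3:**
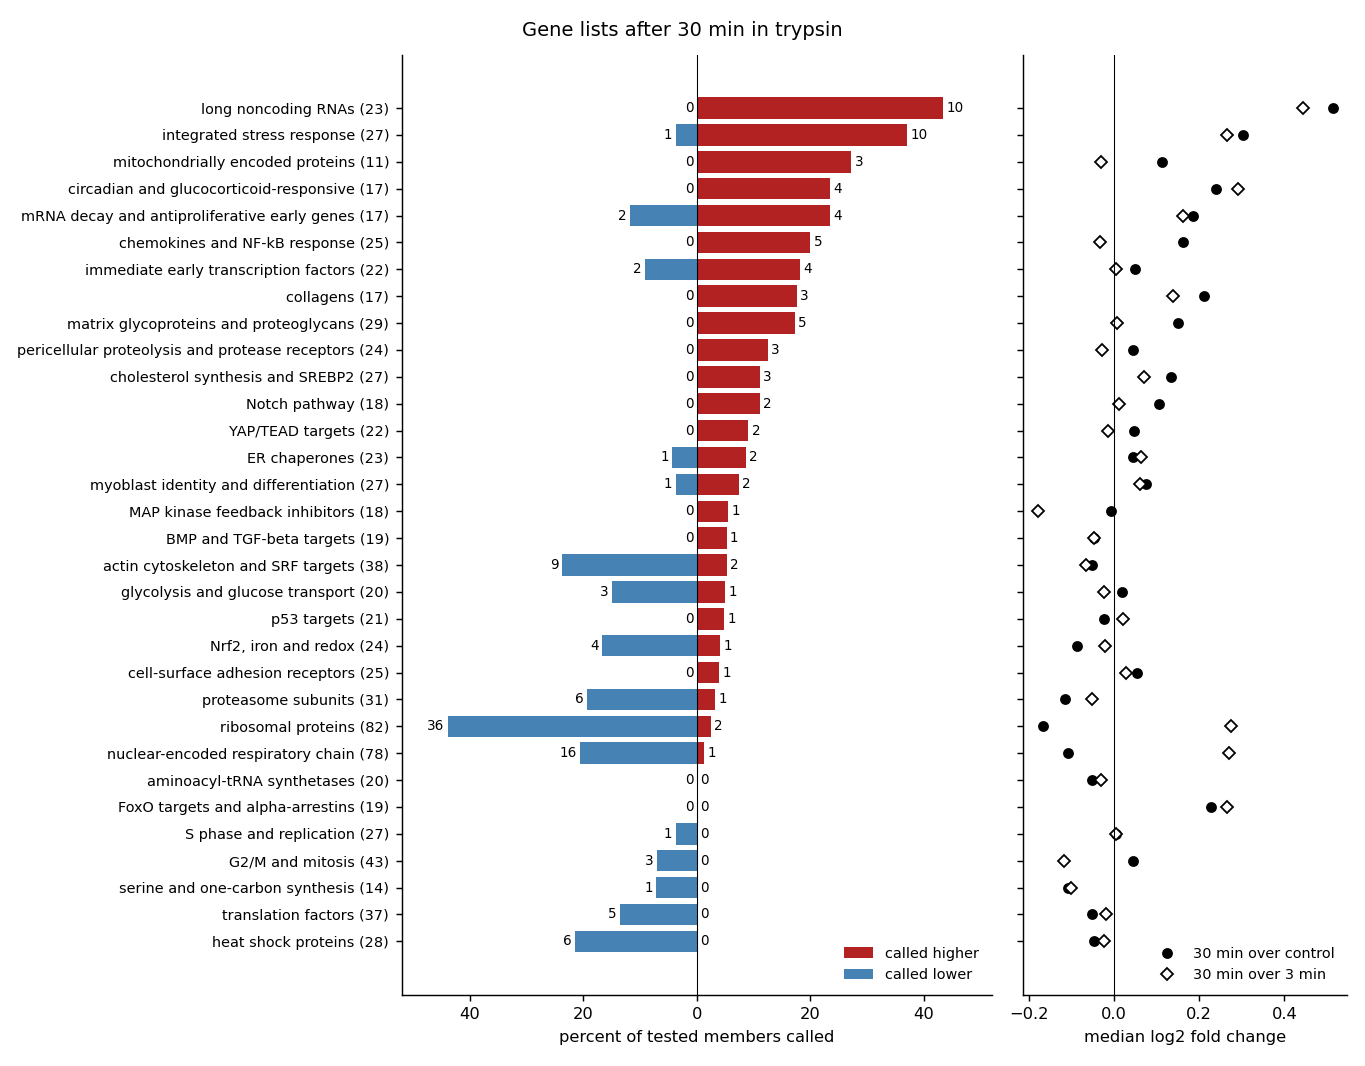
Bars give the percent of tested members of each gene list called higher (red, right) or lower (blue, left) in 30 min trypsin against control, with the counts beside them and the number tested in brackets; the right panel gives each list's median log2 fold change over control (filled circles) and over 3 min trypsin (open diamonds). The long noncoding RNAs (10 of 23) and the integrated stress response (10 of 27) have the longest bars to the right and the ribosomal proteins (36 of 82) the longest to the left, and the ribosomal and respiratory lists have medians under 0 over control and above 0 over 3 min.

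Components of the extracellular matrix were higher where they were called. Of 17 tested collagen genes 3 rose and none fell (median log2 change 0.21), and of 29 matrix glycoproteins and proteoglycans 5 rose and none fell (median 0.15; 3 rises without control replicate 2). Col12a1, a collagen that bridges fibrils, had 101, 77.1 and 75.8 CPM in 30 min cells and 45.9, 43.7 and 43.1 CPM in control cells. Col12a1 changed by 0.93 ± 0.13 on the log2 scale (edgeR adjusted p = 4.94e-07). Col1a2, a chain of type I collagen, had 1566, 1560.2 and 1548 CPM in 30 min cells and 1227, 1262 and 1179.8 CPM in control cells. Col1a2 changed by 0.35 ± 0.05 on the log2 scale (edgeR adjusted p = 7.82e-07). Col1a1, its partner chain, had 21.2, 17.7 and 20.7 CPM in 30 min cells and 10.8, 10.2 and 9.37 CPM in control cells; its call (edgeR adjusted p = 0.0175) was lost in 4 of 6 fits that left out 1 library, up to 0.0819 without control replicate 3. Among glycoproteins, Fn1, which encodes fibronectin, had 1279.9, 1294 and 1280.0 CPM in 30 min cells and 1089.7, 1007 and 998 CPM in control cells. Fn1 changed by 0.32 ± 0.05 on the log2 scale (edgeR adjusted p = 9.98e-06). Hspg2, the basement membrane proteoglycan perlecan, rose by 0.43 (edgeR adjusted p = 9.52e-06), and Vcan, the proteoglycan versican, by 0.48 (edgeR adjusted p = 0.00275). Tnc, the de-adhesive protein tenascin-C, rose by 0.53 (edgeR adjusted p = 0.00595; 0.0586 without control replicate 2).

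Of 25 tested adhesion receptors 1 rose and none fell (median 0.05). These counts are near the shares over all tested genes, 2.07% higher and 2.61% lower. The riser was Lrp1, an endocytic receptor that also clears proteases, with 458, 502 and 489.6 CPM in 30 min cells and 409.6, 346 and 360.0 CPM in control cells. Lrp1 changed by 0.38 ± 0.07 on the log2 scale (edgeR adjusted p = 5.71e-05). Itgb1, the common beta chain of many integrins, had 903, 770.2 and 771 CPM in 30 min cells and 754, 754 and 795 CPM in control cells. Its log2 value of 0.08 ± 0.05 did not pass (edgeR adjusted p = 0.493). Of 24 genes of pericellular proteolysis 3 rose (Mmp2, Adamts1 and the tissue factor gene F3), by 0.39, 0.47 and 0.52, and none fell. Each of the 3 lost its call in 5 of 6 fits that left out 1 library (highest edgeR adjusted p = 0.301 for Mmp2 and 0.221 for Adamts1, both without 30 min replicate 2, and 0.251 for F3 without control replicate 3), and DESeq2 called none of them. Targets of YAP and TEAD, which respond to cell spreading, gave 2 rises and no fall among 22 tested (median 0.05), F3 and Amotl1, a binding partner of YAP (0.52 ± 0.11; edgeR adjusted p = 0.000724). Ccn1, a matricellular target of YAP, had 267, 231 and 269 CPM in 30 min cells and 231, 239.9 and 225 CPM in control cells and did not pass (edgeR adjusted p = 0.319), whereas it had 391, 416 and 399.8 CPM after 3 min and was lower at 30 min than at 3 min, with a log2 change of -0.66 (edgeR adjusted p = 5.07e-11). Of 19 BMP and TGF-beta targets 1 rose, Id3, an inhibitor of myogenic factors, with 933, 856 and 877 CPM in 30 min cells and 737, 661 and 665 CPM in control cells. Id3 changed by 0.37 ± 0.05 on the log2 scale (edgeR adjusted p = 9.08e-07).

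Of 27 tested genes of cholesterol synthesis 3 rose and none fell (median log2 change 0.13; 0.079 without control replicate 3). Srebf2, the transcription factor of this pathway, had 403, 396 and 407 CPM in 30 min cells and 318, 319 and 318 CPM in control cells. Srebf2 changed by 0.34 ± 0.06 on the log2 scale (edgeR adjusted p = 0.000148). Insig1, its sterol-sensing retention protein, rose by 0.50 (edgeR adjusted p = 0.00647; 0.0813 without control replicate 1), and Fdps, a synthase of farnesyl diphosphate with 4 copies, by 0.60 (edgeR adjusted p = 0.0033).

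The cells carried myoblast markers in both groups. All 8 markers were tested, and their summed level was 1788 to 1907 CPM in 30 min libraries and 1606 to 1768 CPM in control libraries. Of 27 tested genes of myoblast identity and differentiation 2 rose and 1 fell (median 0.08; 0.0087 without control replicate 3). Myf5, a myogenic factor of undifferentiated myoblasts, had 132, 106 and 128 CPM in 30 min cells and 93.1, 65.1 and 56.7 CPM in control cells. Myf5 changed by 0.79 ± 0.12 on the log2 scale (edgeR adjusted p = 4.05e-06), and was also above 3 min by 0.41 (edgeR adjusted p = 0.0306). Myod1, the other early myogenic factor, had 51.9, 57.8 and 65.8 CPM in 30 min cells and 55.5, 50.5 and 45.0 CPM in control cells and did not pass (edgeR adjusted p = 0.408). Tnnt2 and Acta1, contractile proteins, changed by 0.26 and -0.48, with calls lost in 4 and 2 of the fits that left out 1 library (highest edgeR adjusted p = 0.356 without 30 min replicate 1 and 0.118 without control replicate 1). Endothelial markers summed to 0 to 0.521 CPM in 30 min libraries and 0.638 to 0.971 CPM in control libraries, with Kdr and Tek at 0 in both groups. Haematopoietic markers summed to 14.4 to 19.3 CPM in 30 min libraries and 13.1 to 28.1 CPM in control libraries, with Itgam and Adgre1 at 0 in both. Epithelial markers summed to 189 to 243 CPM in 30 min libraries and 198 to 218 CPM in control libraries, with Epcam and Krt18 at 0 in both. Only 1 of the 6 epithelial markers, Krt14, was tested, and it made up nearly all of this sum. Krt8 had 4 counts over the 30 min and 6 over the control libraries, and Cdh1 had 0 and 4. The adipocyte and neural sums overlapped between the groups as well. In bulk samples fewer cells with a transcript and less of it per cell cannot be told apart.

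The largest falls named by the rule were Mrps21 (-1.67), a mitochondrial ribosomal protein, Tspan4 (-1.52), a tetraspanin, Phgdh, Mir6236 (-1.35), Pnp (-1.32), a purine phosphorylase, Ppp1ca, Ftl1, Trmt112 (-1.27), Sh3bgrl3 (-1.26), Eno1, Tmed1 (-1.24) and Rps6. Of these, Trmt112 and Tmed1 lost their calls in 5 and 6 of the fits that left out 1 library (highest edgeR adjusted p = 0.202 without 30 min replicate 3 and 0.132 without 30 min replicate 1), and Tspan4, Sh3bgrl3, Trmt112, Tmed1 and Ftl1 each have another annotated gene over their transcript end. Mrps21, Trmt112 and Rps6 have 1, 2 and 10 near-identical copies. Ppp1ca, Ftl1 and Eno1 were also called lower after 30 min than after 3 min and after 30 s. Mir6236 and Rps6 were called lower against 3 min only, and Tspan4 against 30 s only. Mrps21, Phgdh, Pnp, Trmt112, Sh3bgrl3 and Tmed1 were called against neither shorter exposure. Mean CPM of Mir6236 was 57.5 after 30 s, 53.4 after 30 min and 134.5 in control cells. For Sh3bgrl3 these means were 19.7, 28.05 and 66.7 CPM. Ppp1ca (ENSMUSG00000040385, chr19:4192065-4195420), a catalytic subunit of protein phosphatase 1, had 42.5, 51.6 and 53.3 CPM in 30 min cells and 119.9, 123 and 121 CPM in control cells. Ppp1ca changed by -1.30 ± 0.12 on the log2 scale (edgeR adjusted p = 3.38e-12); another annotated gene overlaps its transcript end. Eno1 (ENSMUSG00000063524, chr4:150236721-150248879), the glycolytic enolase, had 147, 135 and 134 CPM in 30 min cells and 362, 319 and 316 CPM in control cells. Eno1 changed by -1.26 ± 0.08 on the log2 scale (edgeR adjusted p = 7.14e-18), and has 1 near-identical copy. In neither gene did the groups overlap, which the naming rule required. For Eno1 the shorter exposures lay between, with 189, 200.2 and 207 CPM after 30 s and 262, 262 and 302 CPM after 3 min. Of 20 glycolysis genes 3 fell (Eno1, Eno3 and Pkm, with log2 changes of -1.26, -0.22 and -0.15) and 1 rose (Tpi1, by 0.27), with a median of 0.02 (-0.065 without 30 min replicate 3); the call of Pkm was lost in 5 of 6 fits that left out 1 library (highest edgeR adjusted p = 0.296, without control replicate 1).

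**Figure D4:**
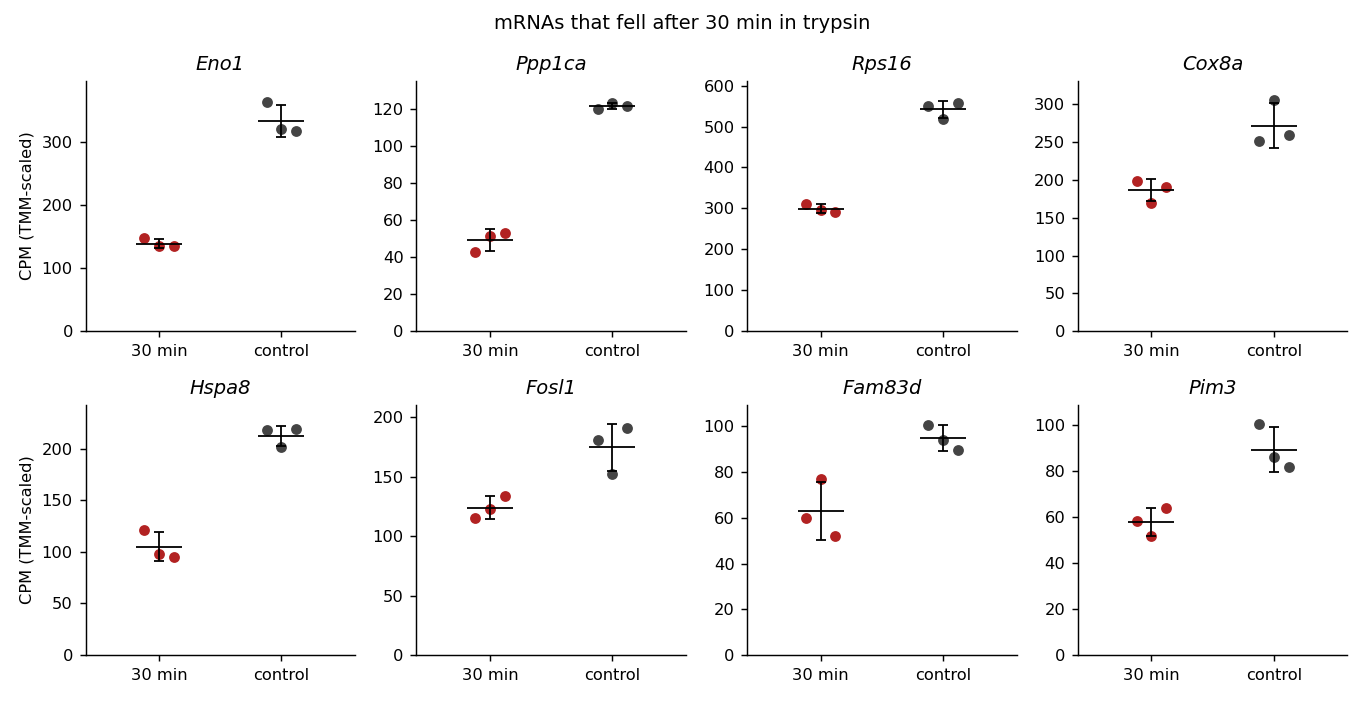
Each panel shows CPM (TMM-scaled, linear axis from 0) of 1 mRNA in the 30 min trypsin libraries (red, left) and the control libraries (grey, right), with a bar for the mean ± SD of 3 libraries. All 8 mRNAs have every 30 min library below every control library, from Eno1 at 147, 135 and 134 against 362, 319 and 316 CPM to Pim3 at 58.1, 51.6 and 63.9 against 100.2, 86.0 and 81.6 CPM. The naming rule required this of Eno1 and Ppp1ca.

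Heat shock proteins had 6 falls and no rise among 28 tested (median -0.05), but 4 of the 6 have near-identical copies, and without such genes 2 of 24 fell. Hspa8, the constitutive HSC70 with 8 copies, had 121, 98.0 and 95.3 CPM in 30 min cells and 218, 201 and 218 CPM in control cells. Hspa8 changed by -1.02 ± 0.09 on the log2 scale (edgeR adjusted p = 1.17e-12). Cryab, a small heat shock protein without such a copy, had 401, 413 and 412 CPM in 30 min cells and 524, 485 and 510.4 CPM in control cells. Cryab changed by -0.31 ± 0.06 on the log2 scale (edgeR adjusted p = 0.00029). Hspa1b, the inducible HSP70, had 56.2, 52.1 and 57.7 CPM in 30 min cells and 63.2, 50.5 and 54.4 CPM in control cells, and its groups overlapped (edgeR adjusted p = 0.986). Of 24 genes of the Nrf2, iron and redox list 4 fell and 1 rose (median -0.09). Mt1, a metallothionein, had 316, 302 and 364 CPM in 30 min cells and 416, 425 and 457 CPM in control cells. Mt1 changed by -0.41 ± 0.07 on the log2 scale (edgeR adjusted p = 2.75e-05), and Nqo1, a quinone reductase, fell by 0.31 (edgeR adjusted p = 0.000791). Ftl1 and Gpx4, the ferritin light chain and a lipid peroxidase, were called lower at -1.30 and -1.14 and have 10 and 1 copies.

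Of 38 genes of the actin cytoskeleton and SRF list 9 fell and 2 rose (median -0.05), and 6 of the falls and neither rise kept their call in all fits that left out 1 library. Tpm4, a tropomyosin, had 617, 568 and 628 CPM in 30 min cells and 759.8, 771 and 755 CPM in control cells. Tpm4 changed by -0.34 ± 0.05 on the log2 scale (edgeR adjusted p = 8.41e-06). Myl6 and Tmsb10, a myosin light chain and a monomer-binding thymosin, were called lower at -0.49 and -0.45 and have 5 and 1 copies. Pfn1, which encodes profilin, was called at -1.30 ± 0.26, but its libraries spread widely and overlapped, with 226, 1127 and 668 CPM in 30 min cells and 2386, 998 and 1646 CPM in control cells; DESeq2 did not call it (adjusted p = 0.154). Of 31 proteasome subunits 6 fell and 1 rose (median -0.11), of 37 translation factors 5 fell and none rose (median -0.05), of 43 G2/M genes 3 fell and none rose (median 0.04), and of 27 S phase genes 1 fell and none rose (median 0.00, and -0.070 without control replicate 3). With 1 library left out 3 to 6 proteasome subunits were called lower (3 without 30 min replicates 1 or 2 or control replicates 2 or 3) and none or 1 higher, and without control replicate 3 the G2/M median was 0.0022. Among genes that kept their call with any 1 library left out were Eef1g, an elongation factor subunit (-0.79 ± 0.13; edgeR adjusted p = 9.97e-06), Psmb2, a proteasome core subunit (-0.39 ± 0.07; edgeR adjusted p = 0.00017), and Fam83d, a spindle protein with 60.0, 77.1 and 52.03 CPM in 30 min cells and 101, 94.2 and 89.5 CPM in control cells (-0.57 ± 0.12; edgeR adjusted p = 0.00163).

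Ribosomal protein mRNAs made up the most downward calls of any list: of 82 tested 36 fell and 2 rose against control, with a median log2 change of -0.17. They took 6.06% ± 0.15 of the counts in 30 min libraries and 6.60% ± 0.11 in control libraries (SD, n = 3 each). Of the 36, 24 kept their call in all 6 fits that left out 1 library. Among the 29 members without a near-identical copy 14 fell and none rose, with a median of -0.20. Rps16 (ENSMUSG00000037563, chr7:28350652-28353155) had 311, 296 and 291 CPM in 30 min cells and 549.9, 519 and 558 CPM in control cells. Rps16 changed by -0.86 ± 0.06 on the log2 scale (edgeR adjusted p = 1.35e-15), with no overlap. Coding mRNAs of 800 nt or less took 8.30% ± 0.28 of the counts in 30 min libraries and 8.97% ± 0.13 in control libraries. This set includes the short members of the ribosomal list, so its share is not independent of the list. With a length trend removed per library the median of the list was -0.10, and with coding mRNAs of 800 nt or less left out it was -0.16, with 22 lower calls.

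Among nuclear genes for respiratory chain subunits calls were also mostly downward: of 78 tested 16 fell and 1 rose, with a median log2 change of -0.11, and 10 of the falls held in all fits that left out 1 library. Without coding mRNAs of 800 nt or less 7 of the list fell. Atp5j, a subunit of ATP synthase, had 177, 187 and 199 CPM in 30 min cells and 286, 283 and 276 CPM in control cells. Atp5j changed by -0.58 ± 0.08 on the log2 scale (edgeR adjusted p = 1.01e-07). Cox8a, a subunit of cytochrome c oxidase, had 198, 169.9 and 191 CPM in 30 min cells and 251, 305 and 259 CPM in control cells. Cox8a changed by -0.55 ± 0.08 on the log2 scale (edgeR adjusted p = 1.74e-06). The 3 libraries of 30 min lay below all control libraries in both. Of 11 mitochondrially encoded mRNAs 3 rose and none fell (median 0.11). Their median was 0.021 without 30 min replicate 3 and 0.213 without 30 min replicate 1, and 1 member was called lower without 30 min replicate 3 or control replicate 1. mt-Nd4, a subunit of complex I, had 6516, 7410.4 and 7050.2 CPM in 30 min cells and 5955, 5665 and 5628 CPM in control cells. mt-Nd4 changed by 0.28 ± 0.04 on the log2 scale (edgeR adjusted p = 8.19e-07), and mt-Co2, a subunit of cytochrome c oxidase with 1 copy, rose by 0.67 (edgeR adjusted p = 1.16e-08).

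Against the shorter exposures both lists had more higher than lower calls. In 30 min against 3 min libraries 285 genes were higher (2.83%) and 121 lower (1.2%), and in 30 min against 30 s libraries 284 were higher (2.82%) and 213 lower (2.11%). Ribosomal protein mRNAs had 44 higher and 8 lower against 3 min (median log2 change 0.27) and 44 higher and 10 lower against 30 s (median 0.24). The respiratory list had 36 higher and 2 lower against 3 min (median 0.27) and 25 higher and 4 lower against 30 s (median 0.14). Rps16 had 243, 238 and 239 CPM after 30 s and 289, 304 and 302 CPM after 3 min, and the 30 min level did not differ detectably from that at 3 min (0.00 ± 0.07; edgeR adjusted p = 0.993). Cox8a had 132, 142 and 141 CPM after 30 s and 158, 128 and 134 CPM after 3 min, and 30 min was higher than 3 min by 0.41 on the log2 scale (edgeR adjusted p = 0.00187). The 30 min libraries thus lay between the shorter exposures and control for Cox8a. Over all ribosomal protein mRNAs the share of counts was 5.07% ± 0.0092 after 3 min, against 6.06% after 30 min and 6.60% in control. These comparisons share the 30 min libraries. Coding mRNAs of 800 nt or less, which include short members of both lists, took 6.55% ± 0.065 of the counts after 3 min. Without coding mRNAs of 800 nt or less, 174 genes were higher against 3 min and 183 against 30 s.

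**Figure D5:**
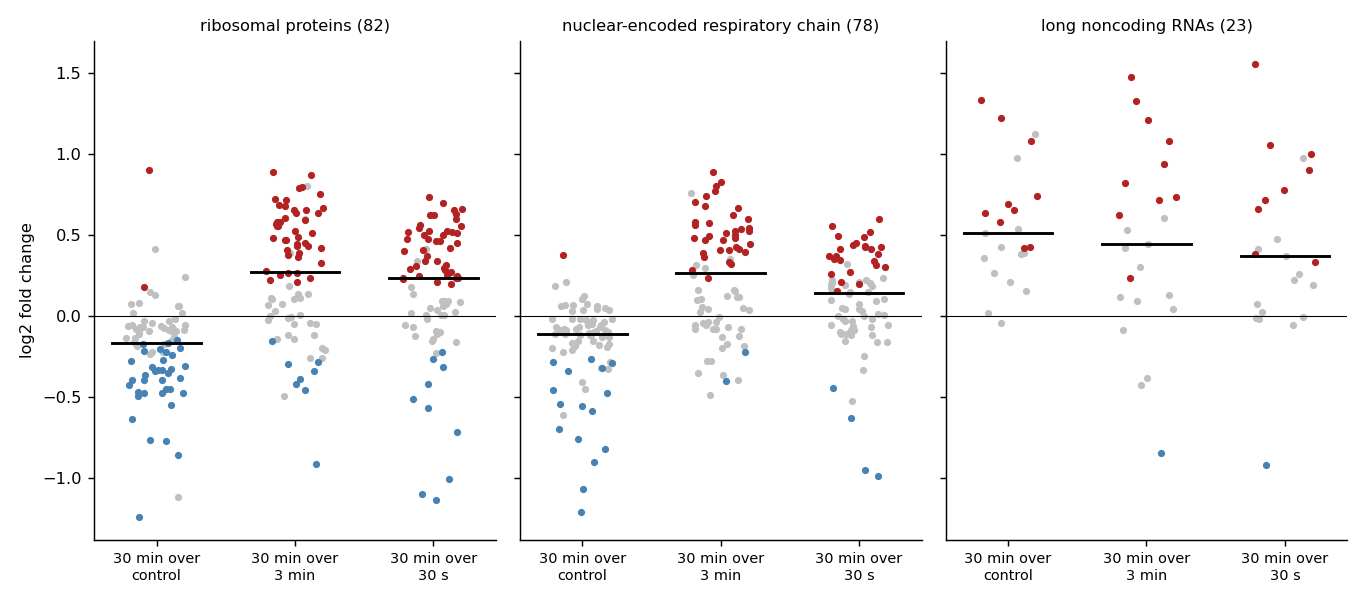
Points are log2 fold changes of the tested members of 3 lists in 30 min trypsin over control, over 3 min and over 30 s, red where called higher, blue where called lower and grey where not called; black lines are medians. Ribosomal and respiratory mRNAs have medians of -0.17 and -0.11 over control and of 0.27 and 0.27 over 3 min, while the long noncoding RNAs have medians of 0.51, 0.44 and 0.37.

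Depp1, Cxcl1, Hes1 and Dusp1 were also among the largest rises over both shorter exposures. Against 3 min the largest rises named by the rule were Depp1 (2.54), Cxcl1 (2.48), Hes1 (1.93), Sulf2 (1.53), a heparan sulfate sulfatase, and Dusp1. Sulf2 had 13.7, 13.0 and 7.52 CPM in 30 min cells and 3.51, 5.98 and 2.00 CPM after 3 min, and lost its call in 4 of 6 fits that left out 1 library (highest edgeR adjusted p = 0.0872, without 3 min replicate 3). The largest falls against 3 min were Bccip (-1.53), Kpna2 (-1.36), Mir6236 (-1.21), Phtf2 (-1.12) and Ftl1 (-1.02). Bccip, Kpna2 and Phtf2 lost their calls in 3, 4 and 3 of 6 such fits (highest edgeR adjusted p = 0.0948 for Bccip without 3 min replicate 2, 0.158 for Kpna2 without 30 min replicate 3 and 0.185 for Phtf2 without 3 min replicate 1). Against 30 s the rises were led by Cxcl1 (2.51), Depp1 (2.49), Hes1 (1.92), Ptpn13 (1.65), a tyrosine phosphatase, and Dusp1 (1.62), and Ptpn13 was not called without 30 min replicate 3 (edgeR adjusted p = 0.0571). The falls against 30 s were led by mt-Nd3, a subunit of complex I, which has 1 copy and had 13.7, 16.2 and 19.4 CPM in 30 min cells and 57.9, 56.0 and 43.1 CPM after 30 s (-1.67 ± 0.20; edgeR adjusted p = 6.72e-09), while control cells had 8.93, 15.1 and 20.2 CPM. Dlx2 (-1.42), Tspan4 (-1.31), Rps29 (-1.13) and Rps27rt (-1.11) followed, of which Rps29 and Rps27rt have 6 copies each and Tspan4 lost its call in 3 of 6 fits (highest edgeR adjusted p = 0.103, without 30 min replicate 1).

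The remaining large rises over control were less known genes. Tcim, a regulator of Wnt signalling, had 12.5, 17.7 and 20.7 CPM in 30 min cells and 7.66, 5.83 and 4.69 CPM in control cells. Tcim changed by 1.51 ± 0.32 on the log2 scale (edgeR adjusted p = 0.0011). Fam221b had 19.4, 17.7 and 15.7 CPM in 30 min cells and 5.10, 8.26 and 7.03 CPM in control cells. Fam221b changed by 1.34 ± 0.29 on the log2 scale (edgeR adjusted p = 0.0014), and was already above control after 30 s, by 1.05 (edgeR adjusted p = 0.0124). Neither pair of groups overlapped, which the naming rule required. Stx1a, a syntaxin, and Pogz, a chromatin protein, were called at 1.15 and 1.08 but not in 4 and 1 of the fits that left out 1 library (highest edgeR adjusted p = 0.192 without control replicate 1 and 0.0705 without 30 min replicate 3). Neither was called against 3 min or 30 s, where the log2 changes were 0.45 and 0.92 for Stx1a and 0.21 and 0.39 for Pogz. Of the 209 higher genes 22 were pseudogenes and 31 had a near-identical copy elsewhere, and of the 263 lower genes 6 were pseudogenes and 68 had such a copy, so reads of these may have been assigned differently between loci. The largest called rise of all belonged to Gm13340, a pseudogene with 2 copies, at 201, 212 and 200.0 CPM in 30 min cells and 16.6, 5.83 and 11.2 CPM in control cells, and it is named after its values were seen.

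Called genes differed in length from the rest, which is given as a description with no test. Among coding genes without a near-identical copy, the 190 lower genes had a median genomic span of 10.7 kb and a median mRNA of 1860 nt, the 156 higher genes 19.9 kb and 2695 nt, and the 8980 genes without a call 26.5 kb and 3180 nt. Spans over 50 kb made up 8.42% of the lower genes, 27.6% of the higher genes and 29.7% of the rest. The motif TATTTAT, an AU-rich element of unstable mRNAs, was present in the last 1000 bases of 20.5% of the higher, 18.4% of the lower and 20.3% of the uncalled mRNAs, and of 35.1% of the 57 that rose and 21.7% of the 60 that fell by more than 1.5-fold. In RefSeq windows of 250 bases before the start, searched on both strands, the C/EBP-ATF element was found for 2.68% of the higher genes (149 of 209 had a window), 1.01% of the lower genes and 2.29% of all tested genes. The CRE was found for 2.68%, 3.02% and 3.33% and the kappaB motif for 8.05%, 5.03% and 5.28% of these 3 sets. The AP-1 site (TGANTCA) had shares of 3.36%, 4.52% and 5.15%, and the RBPJ site (TGGGAA) of 22.8%, 19.1% and 23.3%. A match says only that the letters occur in the window.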

How the data were processed

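The deposited table holds whole-number counts per gene for 18 BRB-seq libraries in 6 groups of 3. Per the submitters' processing notes, the authors made these counts on GRCm38/mm10 with HISAT2 2.1.0 and featureCounts 2.0.1, and also used Trim Galore 0.6.6, cutadapt 2.6 and UMI-tools 1.0.1. How molecular identifiers, strand and multi-mapped reads were set is not given in the sources used here. Deposited normalized counts and TPM values went unused.

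Genes were filtered by edgeR's filterByExpr with the 6 groups, which left 10075 of 25957, and fitted with edgeR 4.0.16 (R 4.3.3) over all 18 libraries, with TMM scaling, no covariate and 12 residual degrees of freedom. Each comparison was tested with the quasi-likelihood F test, and p-values were adjusted over all tested genes by the Benjamini-Hochberg method, with calls at 0.05. The SE of a log2 change is its size divided by the square root of F. After the main fit, the same test recovered known changes in counts simulated from its fitted spreads. The model holds by construction in such counts, so this does not check the model against the data. The common biological coefficient of variation was 6.08%. A floor of 3 counts was 1.59 to 1.87 CPM in 30 min libraries and 1.38 to 1.90 CPM in control libraries, and this covers counting error only. Replicates of a group differed by more than sampling noise (chi-square per degree of freedom 1.41 to 2.60 over 18 pairs), so none was counted as a duplicate.

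The comparison and the 32 gene lists were chosen with earlier results of these data known. Genes are named by a rule: the 12 largest rises and falls among called genes with a mean from 10 CPM upward in the higher group and separate libraries, passing over pseudogenes and predicted genes (5 each for the shorter exposures), up to 4 called members of each list by p, and a short list of reference genes. Other genes named are said to be chosen after their values were seen, as are Atf3, Sod2, Eif4ebp1, Sertad1, S100a4, Malat1 and Neat1. Gene coordinates come from GENCODE M21 (GRCm38). A near-identical copy is a transcript of another locus that matches the last 300 bases at 95% identity or more over at least 100 bases (BLAST+ 2.17.0+). Alternatives covered the scaling, DESeq2 1.42.0, the filter, the groups in the fit, a replicate block, a length trend, copies, short mRNAs, a minimum fold of 1.2 and leaving out each library. The filter was rerun for each library left out.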

Additional observations from a re-analysis of the deposited data

Results flagged for a closer look

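Called changes against control ran in opposite directions at 30 min and at 3 min for 9 genes, and the difference of both, 30 min minus 3 min, was itself called in edgeR. The difference was positive, with 30 min above and 3 min below control, for the calcium-binding protein gene S100a4 (0.953), the snoRNA host Snhg1 (1.083), the phosphatase gene Phpt1 (0.8514), the long noncoding RNAs 2410006H16Rik (1.139) and 1110038B12Rik (0.9222), the pseudogenes Gm8292 (0.9978) and Gm9351 (0.9024), and Rps19 (0.8693), which has 10 copies. It was negative for the rRNA fragment CT010467.1 (-2.267).

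The same held between 30 min and 30 s for 9 genes. The difference, 30 min minus 30 s, was positive for S100a4 (0.5521), Nupr1 (1.525), 2410006H16Rik (0.8542), Gm8292 (0.8154) and Rps19 (0.6253). It was negative for the ribosomal protein genes Rps28 (-1.101), Rpl38 (-1.005) and Rps21 (-0.513), which have 1, 3 and 1 copies, and for the pseudogene Gm28438 (-2.376). Both sets of differences are log2 values and share the 30 min libraries. The calls against control of Rps28, Rpl38 and Rps21 were lost in 2, 3 and 3 of the 6 fits that left out 1 library (highest edgeR adjusted p = 0.114, 0.174 and 0.2398, the first without control replicate 1 and both others without 30 min replicate 2). These 3 calls were also lost with a length trend removed. With 1 library left out, Phpt1 lost its call in 6 fits, Gm8292 in 4, Gm28438 in 3, and Rps19 and S100a4 in 2 each (highest edgeR adjusted p = 0.170, 0.146, 0.150, 0.120 and 0.0755, without control replicate 2 for Phpt1 and Gm8292, control replicate 3 for Gm28438 and 30 min replicate 3 for the others).

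Among the 12 largest rises, Hes1 and Fam221b were also higher than control in the low trypsin libraries, by 0.5328 and 1.07 on the log2 scale (edgeR adjusted p = 0.00251 and 0.0147). No comparison above contrasts these libraries, but they entered the shared fit. Hes1 stood at 2.58 and Fam221b at 1.34 after 30 min.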

How the results depend on the processing

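Neither of the other scalings moved a count of called genes by more than 1.5 times. With DESeq2 130 genes were higher in 30 min than in control cells, in place of 209. With only the 30 min and control libraries in the fit, 154 genes were higher and 211 lower, in place of 209 and 263. Testing for a fold of at least 1.2 left 44 higher and 76 lower against control, 118 and 25 against 3 min, and 97 and 65 against 30 s. Without coding mRNAs of 800 nt or less, an alternative chosen after seeing the data like the removal of copies by sequence, 174 genes were higher against 3 min and 183 against 30 s. Leaving out 1 library gave 126 (without control replicate 2) to 159 higher and 174 (without 30 min replicate 2) to 238 lower genes against control. It gave 236 to 270 higher and 75 (without 3 min replicate 1) to 96 lower genes against 3 min, where 76 and 77 were lower without 3 min replicate 3 and 30 min replicate 1. Against 30 s it gave 234 to 276 higher and 151 to 185 lower genes.

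Lot numbers did not pair the libraries: deviations of same-numbered 30 min and control libraries correlated at -0.054, -0.060 and -0.020. With the replicate block 200 genes were higher and 259 lower against control, 282 and 122 against 3 min, and 290 and 216 against 30 s.

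For single genes and alternatives together, 3387 values kept direction and side of the threshold, 544 lost their call, 1 gained one and 5 reversed. The reversed values belong to genes without a call against control: with 1 library left out, Junb ranged between -0.087648 and 0.11585, Hspa1b between -0.079597 and 0.072537, and mt-Nd3 between -0.10312 and 0.40928. Hspa1b was also above 0, at 0.035243, without 30 min replicate 2, and mt-Nd3 below 0, at -0.015367, without 30 min replicate 3. In the lists, DESeq2 called 3 chemokine and NF-kB genes and 2 immediate early factors higher, and 11 ribosomal protein genes were lower at a fold of at least 1.2. The cause of these shifts was not tested. At 1490869 to 2285307 counts a library, a gene of 1.38 to 1.90 CPM in control rests on 3 counts.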

Other observations

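Fam83d, Ccnb1 and Cdc20, genes of mitosis, were the falls among 43 tested G2/M genes. Ccnb1, which encodes cyclin B1, had 166, 160.0 and 172 CPM in 30 min cells and 195, 187 and 229 CPM in control cells, -0.30 ± 0.08 on the log2 scale (edgeR adjusted p = 0.0175; 0.258 without control replicate 3). Cdc20, an activator of the anaphase-promoting complex, had 345, 371 and 363 CPM in 30 min cells and 452, 432 and 399 CPM in control cells, -0.25 ± 0.06 (edgeR adjusted p = 0.00771; 0.0649 without control replicate 1). Gins2, a subunit of the replicative helicase, was the fall among the S phase genes, with 44.4, 42.2 and 43.3 CPM in 30 min cells and 52.95, 69.0 and 69.4 CPM in control cells (edgeR adjusted p = 0.00582; 0.0548 without control replicate 3).

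Among translation factors and proteasome subunits, Eif3m, a subunit of the initiation factor eIF3, had 39.4, 38.6 and 55.2 CPM in 30 min cells and 73.4, 67.5 and 84.8 CPM in control cells, -0.77 ± 0.14 on the log2 scale (edgeR adjusted p = 0.000105). Psmb5, the chymotrypsin-like subunit of the proteasome, had 35.0, 42.7 and 35.7 CPM in 30 min cells and 59.3, 61.7 and 63.3 CPM in control cells, -0.69 ± 0.14 (edgeR adjusted p = 0.0006). Psmb7, the trypsin-like subunit, went the other way, with 19.4, 12.5 and 7.52 CPM in 30 min cells and 2.55, 7.77 and 4.69 CPM in control cells, 1.33 ± 0.37, and lost its call in 4 of 6 fits that left out 1 library (highest edgeR adjusted p = 0.236, without 30 min replicate 1).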
